A study of Homo sapiens with 24 samples.

Results

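The long detained introns are the 2648 intron bins that the authors' tables class as detained and whose width is 1500 bases or more. They make up 55.5% of the 4769 detained introns in the tables and lie in 2171 genes. The members were chosen by class and width alone, and no count entered the rule. A further 1328 detained introns are 500 to under 1500 bases wide and 793 are under 500 bases, and these served as the comparison. For tests, 2405 members had a mean of 10 or more counts over all libraries, 243 members fell below that mean and were not tested, and 1905 shorter detained introns were tested beside them.

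A detained intron is an intron that stays in a transcript after the other introns have been spliced out and the transcript has received its poly(A) tail. Such transcripts are held in the nucleus, where they can be spliced later or be degraded, so that they form a store of unfinished messages. O-GlcNAc is a sugar that the transferase OGT adds to serine and threonine of nuclear and cytosolic proteins and that the hydrolase OGA, listed in the tables as MGEA5, removes. The transcripts of both enzymes are known to keep a detained intron whose removal follows the O-GlcNAc level of the cell.

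HEK293T, the line used, is of human embryonic kidney origin and expresses the SV40 large T antigen, and the labels name no further genetic change. In the first experiment the cells received 10 µM OSMI-2, an inhibitor of OGT, or the solvent DMSO, for 2 h or 6 h. In the second experiment they received 5 µM TMG, an inhibitor of OGA, or DMSO, for 2 h or 6 h. All cells had fresh medium before treatment, and polyadenylated RNA was sequenced with a stranded kit. Each of the 8 groups had 3 libraries, except OSMI-2 at 6 h with 2; the third OSMI-2 sample of 6 h was not analysed here. The labels do not say whether the libraries of a group come from separate cultures, so the p-values measure the spread between these libraries, which may be technical. In bulk RNA, fewer cells with an intron and less of the intron per cell cannot be told apart.

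Total counts over all bins ran from 39.5 M to 100.2 M per library, and 2570 to 2646 of the 2648 members had at least 1 count in each library. Long introns were thinly covered: the median member had 11 to 74 counts in a library. Of the genes that such kidney lines are known to express, VIM had a median of 656 CPM (counts scaled to the library total), NEFL 26.7 and PAX2 2.25, whereas NEFM (0.665) and LHX1 (0.310) were near 0. The leukocyte, liver, red cell and endothelial markers PTPRC, CD3E, ALB, HBB and PECAM1 are not listed in the tables, and the fibroblast collagen COL3A1 had a median of 0.348 CPM. The experiments differed in how gene counts depended on the GC content of the transcript. The slope was 0.425 to 1.15 log2 units per 10 percentage points of GC in the OSMI-2 experiment and -0.542 to -0.236 in the TMG experiment. Within the OSMI-2 experiment, DMSO library a of 6 h stood apart, with a slope of 0.425 where the other libraries had 0.835 to 1.15. In the TMG experiment, DMSO library b of 6 h had the highest share of counts in long introns.

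The members were 1500 to 197381 bases wide, with a median of 3598.5 and quartiles of 2324.5 and 6243.75. By width, 775 were under 2500 bases, 964 were 2500 to under 5000, 581 were 5000 to under 10000 and 328 were 10000 or more. In 1771 genes there was 1 member, in 337 genes 2, in 50 genes 3, in 12 genes 4 and in DOCK3, a guanine nucleotide exchange factor of neurons, 5. With the bins of each gene split into 3 equal parts, 55.2% of members lay in the part nearest the 3′ end and 11.7% in that nearest the 5′ end, against 50.7% and 11.5% of the shorter detained introns. Of the members, 2198 had exactly 1 intron of the same gene and length in GENCODE release 29 on GRCh38. An annotated transcript kept the whole intron for 49 of these (2.23%), against 367 of 1347 matched shorter introns (27.2%). Other annotated exons lay inside many of them: 342 held an exon of their own gene, 169 an exon of another gene on the opposite strand and 80 an exon of another gene on the same strand. The counts of such bins can include reads of those exons.

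The ends of the introns carry the letters that the spliceosome reads, and they are shown for introns to which the results below return. The letters were read from GENCODE transcripts that run across the boundary. Capitals mark the intron and lower case the exon, on the strand of the gene, 5′ to 3′, and no letters were found for the other end of an intron shown with 1 end.
USP22_E003, 5′ splice site (GRCh38 chr17:21004991-21006895, minus strand): ctccagGTATGTGG
USP22_E003, 3′ splice site: CTGAATCCTGCCGTTGTCTGTTACAGcaaa
SRRM1_E019, 3′ splice site (GRCh38 chr1:24663225-24666814, plus strand): ATTAACTATAATTCTTCTTGGTTTAGtggt
HSPA4_E018, 3′ splice site (GRCh38 chr5:133099653-133101758, plus strand): TGAAGACTGTGTATTCTTCTGTTAAGaatc
POLR2B_E011, 3′ splice site (GRCh38 chr4:57007003-57010360, plus strand): TTTAAAGATTGGCTATTTTTTTCTAGgtgt
EFTUD2_E021, 5′ splice site (GRCh38 chr17:44872571-44875933, minus strand): aataagGTAGAAAA
EFTUD2_E021, 3′ splice site: TGTGTTCACCACTGTCTCTGTTTCAGcatg
DOT1L_E006, 5′ splice site (GRCh38 chr19:2191241-2193688, plus strand): ggagcgGTGAGTGT
MGEA5_E003, 3′ splice site (GRCh38 chr10:101787524-101790895, minus strand): AAGTCAAGAGATTCTAATTTTTCCAGaaaa
SNRNP70_E010, 5′ splice site (GRCh38 chr19:49102174-49104633, plus strand): tgtatgGTTGGTAT
SNRNP70_E010, 3′ splice site: CCTCCCCCTCCCCACATCTGTTACAGccgc
DDX17_E006, 5′ splice site (GRCh38 chr22:38490437-38492055, minus strand): ggctagGTTTGTAT
DDX17_E006, 3′ splice site: ATTTATTTTGTTTTGTTTTTTAACAGaagc

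Both groups of introns carried the common splice signals. Of 525 members with letters at the 5′ end, 517 (98.5%) began with GT and 8 with GC, against 622 (98.4%) of 632 shorter introns with GT. All 693 members with letters at the 3′ end closed with AG. The extended start GTAAG was found in 25.5% of members and 19.9% of shorter introns, and the start GTGAG in 17.5% and 25.6%. The last 3 letters were CAG in 58.0% of members and 69.5% of shorter introns, and TAG in 32.9% and 25.2%. These are descriptions of the introns whose ends could be read, on the strand of the gene, and were not tested.

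Level is given below as the percent of a gene's counts: the counts of the intron divided by the counts of its gene outside detained introns. For the median member this was 0.863% ± 0.067 (SD, n = 3) in DMSO at 2 h of the OSMI-2 experiment and 0.856% ± 0.047 (n = 3) with OSMI-2 at 2 h. At 6 h it was 3.35% ± 0.51 (n = 3) in DMSO and 1.03% ± 0.013 (n = 2) with OSMI-2. In the TMG experiment it was 0.954% ± 0.064 in DMSO and 1.23% ± 0.10 with TMG at 2 h, and 1.30% ± 0.31 and 1.44% ± 0.12 at 6 h (n = 3 each). The DMSO group of 6 h in the OSMI-2 experiment was thus far above the other 7 groups. The experiment and the control group cannot be told apart, since each experiment has its own DMSO libraries.

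A wide bin can collect more reads than a narrow one, so the level was also taken per base. Per base, relative to the coverage of the gene, the median long intron had 1.08% ± 0.078 in DMSO at 2 h of the OSMI-2 experiment, whereas introns under 500 bases had 6.71% ± 0.43 (n = 3). In DMSO at 6 h of that experiment these values were 4.26% ± 0.65 and 20.8% ± 2.9 (n = 3). In each of the 8 groups, the per-base level of the long introns was below that of the introns of 500 to under 1500 bases, and that in turn below that of the introns under 500 bases. Only introns with a mean of 10 or more counts entered these medians, whatever their width. A narrow intron thus needed more counts per base than a wide one to enter, and the order was not tested apart from this filter.

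Some members nearly equalled or passed the rest of their gene. C1S_E003 (hg19 chr12:7105435-7113568) in the gene of a complement protease had the highest mean percent, from 51.8% in OSMI-2 library a of 6 h to 201% in DMSO library a of 6 h of the same experiment. It was followed by AQP1_E004 in the gene of a water channel, with group means of 42.2% ± 5.2 to 105% ± 16 (n = 3 each). LRP5L_E006 had group means of 45.7% ± 9.9 to 119% ± 17 (n = 3 each). PRDM2_E008, in the gene of a histone methyltransferase, had 34.5% ± 8.5 with OSMI-2 at 2 h and 160% ± 19 in DMSO at 6 h (n = 3 each). KNDC1_E004, IFNLR1_E004, POLN_E004 and POU6F1_E011 completed the 8 highest. The genes of these 8 had few other counts, with means over all libraries from 85.2 (IFNLR1) to 296 (POLN). For C1S, AQP1 and PRDM2 the means were 103, 160 and 146. Bins outside detained introns spanned only 828 bases in IFNLR1 and 891 in PRDM2. These percents thus rest on a small base.

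The member with the most counts was SNRNP70_E010 (hg19 chr19:49605431-49607890), the long intron of the gene for the main protein of the U1 particle, which recognises the 5′ splice site. SNRNP70_E010 had 920, 818 and 1310 counts in DMSO at 2 h of the OSMI-2 experiment and 4184, 4253 and 3783 in DMSO at 6 h. As a percent of the gene this was 2.20% ± 0.24 and 10.2% ± 3.0 (n = 3 each), and 2.27% ± 0.59 (n = 2) with OSMI-2 at 6 h. In the TMG experiment it was 7.08% ± 0.12 and 5.38% ± 0.70 in DMSO at 2 h and 6 h, and 8.57% ± 0.47 and 6.08% ± 0.42 with TMG (n = 3 each). These percents did not overlap between drug and DMSO for OSMI-2 at 6 h and for TMG at 2 h. By count, SNRNP70_E010 fell with OSMI-2 at 6 h (-1.54 ± 0.25, adjusted p = 8.59e-09) and had 0.21 ± 0.07 with TMG at 2 h (adjusted p = 0.0549, edgeR).

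The long introns held 0.120% ± 0.011 (n = 3) of all counts in DMSO at 2 h of the OSMI-2 experiment and 0.114% ± 0.010 (n = 3) with OSMI-2. At 6 h, the DMSO libraries had 0.373%, 0.520% and 0.658% and the OSMI-2 libraries 0.143% and 0.158%. The shares did not overlap at 6 h and did overlap at 2 h (exact permutation test over libraries, two-sided, p = 0.1 and p = 0.6, where 0.1 is the smallest p these group sizes allow). In the TMG experiment, the DMSO libraries of 2 h had 0.192%, 0.218% and 0.229% and the TMG libraries 0.252%, 0.283% and 0.293%, with no overlap (p = 0.1, exact permutation test). At 6 h, the DMSO libraries had 0.234%, 0.286% and 0.370% and the TMG libraries 0.306%, 0.341% and 0.359%, which overlapped (p = 0.5, exact permutation test). Without DMSO library b the difference at 6 h went from 0.0387 to 0.0752 percentage points (p = 0.1, exact permutation test), and without DMSO library a it was 0.00759 (p = 0.9, exact permutation test). Between 2 h and 6 h the DMSO libraries rose without overlap in both experiments, by 4.32 times in the OSMI-2 experiment and 1.39 times in the TMG experiment (p = 0.1 each, exact permutation test). In the TMG experiment this rise was 0.0837 percentage points with all libraries and 0.0471 without DMSO library b of 6 h. Adjusted over these 6 comparisons, the p-values were 0.15 for the 4 without overlap and 0.6 for the other 2 (Benjamini-Hochberg).

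**Figure D1:**
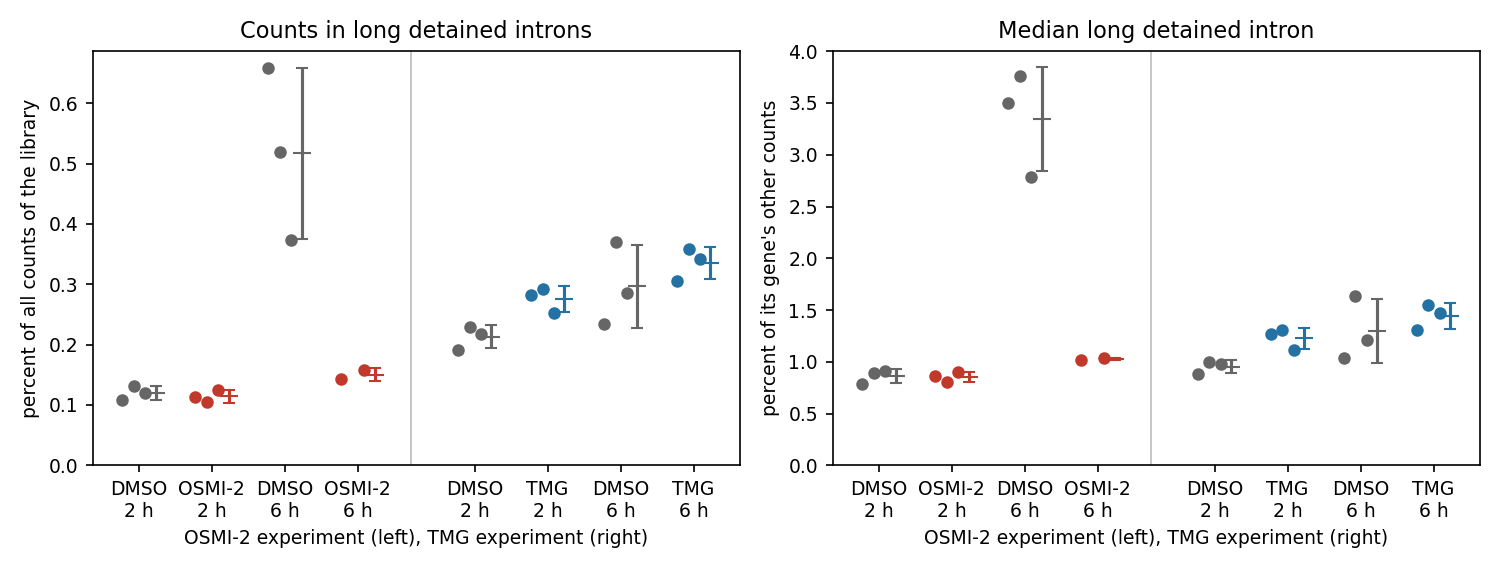
Points are libraries and bars the mean ± SD of the group; the left panel shows the percent of all counts that fell in long detained introns and the right panel the median member's percent of its gene's other counts. The DMSO libraries of 6 h in the OSMI-2 experiment (0.373% to 0.658%, left) lie above every other library, and the OSMI-2 libraries of 6 h (0.143% and 0.158%) lie near those of 2 h.

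The share of detained intron counts that fell in long introns was also compared, again with 0.1 as the smallest p these group sizes allow. Long introns held 51.2% ± 0.38 of all detained intron counts in DMSO and 53.2% ± 0.69 with TMG at 2 h (n = 3 each), without overlap (p = 0.1, exact permutation test, adjusted 0.3 over 6 comparisons). In DMSO of the OSMI-2 experiment they held 45.6% ± 1.5 at 2 h and 52.2% ± 2.5 at 6 h (n = 3 each), also without overlap (p = 0.1, exact permutation test, adjusted 0.3). The other 4 comparisons overlapped, with differences of -3.12 percentage points for OSMI-2 at 6 h, -0.213 for OSMI-2 at 2 h, 0.622 for TMG at 6 h and 1.85 for DMSO over time in the TMG experiment (exact permutation p of 0.3, 0.8, 0.8 and 0.4).

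The same comparison was made inside genes. In 408 genes that have both a tested member and a tested shorter detained intron, the member's log2 change was above that of the shorter intron in 60.8% of genes for TMG at 2 h and in 60.3% for TMG at 6 h. It was above in 65.4% for DMSO over time in the OSMI-2 experiment and 57.1% in the TMG experiment. With OSMI-2 the share was 40.4% at 6 h and 48.8% at 2 h. The median difference was largest in DMSO over time of the OSMI-2 experiment, at 0.26 log2 units, and was 0.10 for TMG at 2 h and -0.12 for OSMI-2 at 6 h. OSMI-2 at 6 h and the DMSO time course of its experiment share the DMSO libraries of 6 h, and so do the corresponding TMG comparisons.

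OGT_E005 (hg19 chrX:70764486-70766193, plus strand) is the long detained intron of OGT, the enzyme that OSMI-2 inhibits, and is 1708 bases wide. At 2 h of the OSMI-2 experiment it had 54, 84 and 65 counts in DMSO, or 2.73%, 3.50% and 4.03% of the gene. With OSMI-2 it had 30, 24 and 17 counts, or 0.658%, 0.304% and 0.606%. Every OSMI-2 library lay below every DMSO library, although the OSMI-2 libraries held more counts of the gene. The log2 fold change was -2.21 ± 0.27 (SE, adjusted p = 1.82e-06, edgeR), and relative to the gene it was -2.73 ± 0.34, which did not pass the threshold over all introns (adjusted p = 0.102, limma). The authors' deposited table gives this bin a log2 fold change of usage of -2.81 with an adjusted p of 7.48e-11.

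At 6 h, OGT_E005 had 1048, 439 and 448 counts in DMSO (6.68%, 6.19% and 4.98% of the gene) and 14 and 37 counts with OSMI-2 (0.447% and 1.16%). This was the largest fall among the named members, at -4.87 ± 0.35 on the log2 scale (adjusted p = 1.66e-39, edgeR). The rest of the gene was lower as well, with 137 to 376 CPM in DMSO and 36.9 to 55.7 with OSMI-2, and relative to the gene OGT_E005 fell by 2.97 ± 0.34 (adjusted p = 4.51e-10, limma). The authors' deposited table has -2.78 for its usage, with an adjusted p of 2.58e-11.

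With TMG, which keeps O-GlcNAc on proteins, OGT_E005 moved the other way. At 6 h the DMSO libraries had 3.56%, 5.25% and 4.91% of the gene and the TMG libraries 12.1%, 12.1% and 11.5%, far apart. OGT_E005 rose by 0.89 ± 0.17 (adjusted p = 0.00215, edgeR) and relative to the gene by 1.40 ± 0.23 (adjusted p = 0.0114, limma), while the gene's other counts went from 217 to 254 CPM in DMSO to 158 to 189 with TMG. At 2 h the DMSO libraries had 7.84%, 9.52% and 8.34% and the TMG libraries 11.3%, 10.0% and 10.4%. The groups did not overlap and the change was small, at 0.26 ± 0.09 (adjusted p = 0.0474, edgeR). It did not pass relative to the gene (0.30 ± 0.15, adjusted p = 0.251, limma), and scaling on the introns alone gave -0.03. In 1 fit over all libraries neither the rise at 2 h (adjusted p = 0.451) nor that at 6 h (adjusted p = 0.222, edgeR) of OGT_E005 passed. The call at 6 h was also lost without TMG library b (0.80, adjusted p = 0.118, edgeR). That at 2 h was lost without DMSO library a or c (adjusted p = 0.136 and 0.236) and without TMG library a or b (adjusted p = 0.193 and 0.130, edgeR). Relative to the gene, the call of OGT_E005 at 6 h was lost without DMSO library a and without TMG library b (limma). It was also lost in 1 fit over all libraries (limma).

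In DMSO, OGT_E005 stood at 3.42% ± 0.65 and 5.95% ± 0.88 of the gene at 2 h and 6 h in the OSMI-2 experiment, and at 8.57% ± 0.86 and 4.57% ± 0.90 in the TMG experiment (n = 3 each). Relative to the gene it rose with time in the first (0.79 ± 0.27, adjusted p = 0.0143, limma) and fell in the second (-0.92 ± 0.24, adjusted p = 0.018, limma). The response to OSMI-2 minus the response to TMG was -2.42 ± 0.26 at 2 h (adjusted p = 6.18e-08) and -5.58 ± 0.46 at 6 h (adjusted p = 5.89e-11, both edgeR interaction terms).

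MGEA5_E003 (hg19 chr10:103547281-103550652, minus strand) is the long detained intron of the gene for OGA, the enzyme that TMG inhibits. In the OSMI-2 experiment at 6 h it had 244, 203 and 138 counts in DMSO and 46 and 33 with OSMI-2, and the log2 fold change was -2.39 ± 0.33 (adjusted p = 1.58e-11, edgeR). The other counts of MGEA5 were also lower, at 117 to 244 CPM in DMSO and 30.1 and 36.0 with OSMI-2. The percent of the gene was 2.39%, 3.34% and 1.82% in DMSO and 2.27% and 1.27% with OSMI-2, and these overlapped (-0.50 ± 0.34, adjusted p = 0.158, limma). At 2 h the OSMI-2 libraries had 0.763%, 0.879% and 1.16% and the DMSO libraries 0.533%, 0.361% and 0.745%, which did not overlap but did not pass (0.78 ± 0.32 relative to the gene, adjusted p = 0.984, limma). With TMG, MGEA5_E003 had log2 fold changes of 0.66 ± 0.24 at 2 h (adjusted p = 0.0674) and 0.47 ± 0.24 at 6 h (adjusted p = 0.622, edgeR), and neither passed. Without DMSO library b of 6 h the latter was 0.75 (adjusted p = 0.0259, edgeR), and without TMG library c of 2 h the former was 0.89 (adjusted p = 0.0134, edgeR).

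**Figure D2:**
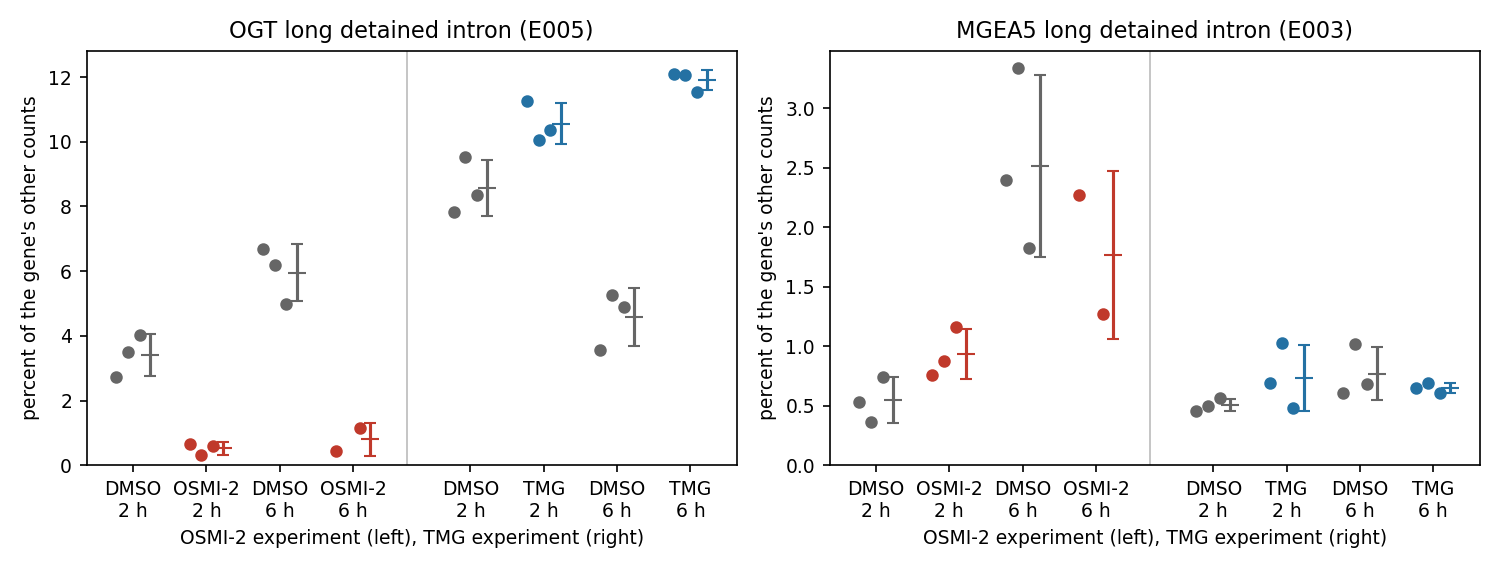
Points are libraries and bars the mean ± SD of the group; the axis is the percent of the gene's counts outside detained introns. OGT_E005 lies under 1.2% in all OSMI-2 libraries and between 10% and 12.1% in all TMG libraries, whereas the MGEA5_E003 values of drug and DMSO overlap in 3 of the 4 comparisons.

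With OSMI-2 at 2 h few long introns passed: 0 rose and 2 of 2405 fell past an adjusted p of 0.05 (edgeR, quasi-likelihood test). Of all 4310 tested detained introns 0.0232% rose and 0.0928% fell (0.116% called). Within this comparison 1597 members had a mean of 10 or more counts, so many of the 2405 were thinly covered here. The median log2 change was -0.06 for members and -0.07 for shorter introns. As a ratio to the gene no member passed, and 0% of the 4310 introns did (limma). At an unadjusted p under 0.05 were 131 of 2405 members and 198 of all 4310 introns (limma). Without DMSO library a 1 member passed. The 2 calls were OGT_E005 and IMMT_E007 (-2.58 ± 0.41, adjusted p = 0.000294, edgeR), named here after its values were seen. IMMT encodes mitofilin, which shapes the inner mitochondrial membrane. IMMT_E007 had 10, 138 and 143 counts in DMSO and 25, 34 and 20 with OSMI-2, so that DMSO library a lay below all OSMI-2 libraries and the groups overlapped. The number of calls was 1 without DMSO library b and 5 without DMSO library c. It was 4 with a term for GC set, which split the libraries into a low and a high set by their GC slope. DESeq2 called 1.

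With OSMI-2 at 6 h the long introns were below those in DMSO of 6 h almost throughout, and falls below are meant against that group. The median member had 3.35% of the gene in that DMSO group and 1.03% with OSMI-2 at 6 h. At 2 h it had 0.863% in DMSO and 0.856% with OSMI-2. The OSMI-2 level of 6 h was thus not below the levels of 2 h. By edgeR 2077 of 2405 members fell and 13 rose (adjusted p under 0.05), where 86.5% of all 4310 detained introns fell and 0.58% rose (87% called). The median log2 change was -1.58 for members and -1.48 for the shorter introns. As a ratio to the gene 2177 members fell and 6 rose (limma; 89.4% and 0.186% of all, 89.6% called), with a median of -1.65. Within the long introns the median went from -1.50 at 1500 to under 2500 bases to -1.63 at 10000 or more. All genes had a median log2 change of 0.15 under this scaling, 0.30 with median-of-ratios factors and -0.09 with TMM over gene sums alone, all small beside the intron change. Without DMSO library a, 1979 members fell and 18 rose, with a median of -1.38 (edgeR).

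The 8 named falls were that of OGT_E005 and 7 others, led by POLR2B_E011 (hg19 chr4:57873169-57876526), whose 3′ splice site is shown above, in the gene of a large subunit of RNA polymerase. POLR2B_E011 had 175, 72 and 84 counts in DMSO (2.34%, 2.49% and 2.29% of the gene) and 8 and 12 with OSMI-2 (0.324% and 0.280%). The log2 change was -3.62 ± 0.42 (adjusted p = 6.19e-15, edgeR). The naming rule required separated libraries in CPM, so the separation of the named falls is no further result. EFTUD2_E021 (hg19 chr17:42949939-42953301), in the gene of a GTPase of the spliceosome, went from 111, 119 and 94 counts to 4 and 18 (-3.50 ± 0.42, adjusted p = 1.29e-14, edgeR). YTHDC2_E024, in the gene of an RNA helicase of the germ line, changed by -3.40 ± 0.43. DIAPH1_E010, in the gene of an actin-nucleating formin, changed by -3.27 ± 0.39, and WDR44_E013 by -3.18 ± 0.42. KMT2B_E037, in a histone methyltransferase gene, changed by -3.14 ± 0.41, and BAI2_E005, in the gene of an adhesion receptor, by -3.04 ± 0.42. All 8 also fell relative to the gene (limma), by 2.85 to 3.98 log2 units.

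The 4 named rises were smaller and did not pass relative to the gene. DOT1L_E006 (hg19 chr19:2191240-2193687), in the gene of another histone methyltransferase, had 18, 41 and 40 counts in DMSO and 65 and 114 with OSMI-2 (1.25 ± 0.35, adjusted p = 0.000546, edgeR). Its percent of the gene was 0.365% to 0.548% in DMSO and 0.732% and 0.699% with OSMI-2, which did not pass (0.61 ± 0.35, adjusted p = 0.1, limma). BTBD2_E010 rose by 0.95 ± 0.35, PNPLA6_E033, in an esterase gene of nerve cells, by 0.86 ± 0.34, and LONP1_E014, in the gene of a mitochondrial protease, by 0.76 ± 0.32 (edgeR). For these 3 the ratio to the gene changed by -0.21, 0.28 and -0.02 (limma adjusted p = 0.598, 0.416 and 0.96), and each lost its edgeR call with TMM over gene sums alone (adjusted p = 0.0596, 0.0799 and 0.113). Without DMSO library a the change of LONP1_E014 was 0.55 (adjusted p = 0.0919, edgeR). Its call was also lost without OSMI-2 library a or b (adjusted p = 0.134 and 0.0607), that of BTBD2_E010 without OSMI-2 library b (0.180) and that of PNPLA6_E033 without OSMI-2 library a (0.0991, edgeR).

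With TMG at 2 h, 271 of 2405 members rose and 1 fell (edgeR), where 8.89% of all 4310 detained introns rose and 0.139% fell (9.03% called). The share called was 11.3% of members and 6.14% of shorter introns, and the median log2 changes were 0.33 and 0.23. By width the median went from 0.18 under 500 bases to 0.36 at 5000 to under 10000 bases and was 0.28 at 10000 or more. The ratio to the gene had a median change of 0.34 over members, but 0 of 2405 passed (limma, beside 0.0232% of all). At an unadjusted p under 0.05 were 690 of the 2405 members and 1025 of all 4310 introns (limma). With the same test on the introns of any width that have a mean of 50 or more counts, 141 of 746 members passed, all higher. The authors' deposited table has 101 members higher and 0 lower in bin usage at its adjusted p under 0.05. For the 141 and the 101, the shares over all detained introns are not given here, so they are not set against the shorter introns. The count of rises moved with single libraries: it was 123 and 99 without DMSO library a or c, 87 and 36 without TMG library a or b, and 129 with DESeq2. With 1 fit over all 23 libraries 1 member passed, and with TMM over the introns alone, which by construction takes out a shift that all introns share, 21 rose and 11 fell.

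The largest of the 8 named rises was that of PSMC6_E013 (hg19 chr14:53187909-53190522), in the gene of an ATPase subunit of the proteasome. It had 34, 47 and 46 counts in DMSO and 102, 98 and 93 with TMG, or 0.401%, 0.521% and 0.589% of the gene against 1.30%, 1.18% and 1.03%. PSMC6_E013 rose by 1.25 ± 0.18 (adjusted p = 4.62e-05, edgeR) and had 1.21 ± 0.21 relative to the gene (adjusted p = 0.0799, limma). At 6 h its DMSO libraries had 0.490%, 0.782% and 0.429% and its TMG libraries 0.644%, 0.464% and 0.464%, which overlapped. USP22_E003 (hg19 chr17:20908304-20910208), in the gene of a deubiquitinase of the SAGA complex, had 28, 51 and 24 counts in DMSO and 64, 67 and 84 with TMG (1.11 ± 0.21, adjusted p = 0.00158, edgeR).

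FOXJ3_E003, in a forkhead factor gene, rose by 1.04 ± 0.18, from 46, 85 and 48 counts to 133, 111 and 111. FAM178A_E019 rose from 51, 73 and 57 counts to 119, 106 and 125 (adjusted p = 0.000278, edgeR). ARIH2_E017, in a ubiquitin ligase gene, rose by 0.97 ± 0.19. NDUFAF6_E019, in the gene of an assembly factor of respiratory complex I, rose by 0.97 ± 0.20. SRRM1_E019 (hg19 chr1:24989716-24993305), in the gene of a splicing coactivator of the SR-related family, had 47, 43 and 54 counts in DMSO and 95, 83 and 93 with TMG (0.95 ± 0.18, adjusted p = 0.00174, edgeR). HSPA4_E018 (hg19 chr5:132435345-132437450), in the gene of a chaperone, had 36, 43 and 31 counts and then 68, 71 and 66 (0.95 ± 0.20, adjusted p = 0.00312, edgeR). The naming rule required every TMG library of 2 h to lie above every DMSO library in CPM, so this separation is no further result. Relative to the gene the adjusted p of the 8 introns ran from 0.0799 to 0.131 (limma). PSMC6_E013 alone among these 8 kept its call when all libraries were fitted together. Without TMG library b the calls of ARIH2_E017 (adjusted p = 0.0711) and NDUFAF6_E019 (adjusted p = 0.0516, edgeR) were lost.

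**Figure D3:**
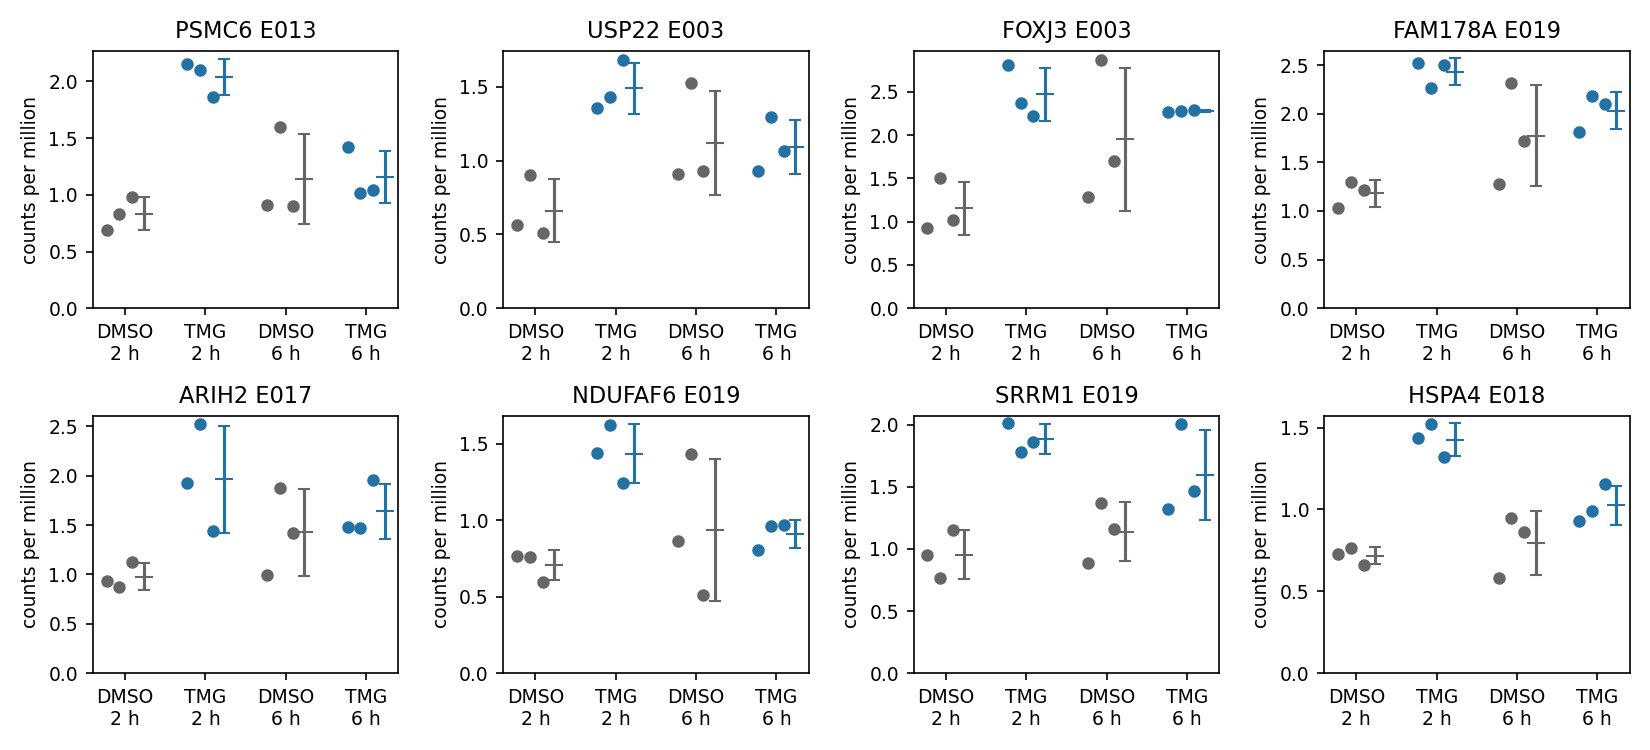
CPM (counts scaled to the library total) in the 4 groups of the TMG experiment for the 8 members named for their rise at 2 h; points are libraries and bars the mean ± SD. The TMG libraries of 2 h lie above the DMSO libraries of 2 h in each panel, which the rule for naming required. The groups of 6 h overlap in each panel.

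The single fall with TMG at 2 h was CALCOCO2_E010, in the gene of an autophagy receptor, named after its values were seen. It had 90, 7 and 8 counts in DMSO and 4, 11 and 4 with TMG, so that only DMSO library a lay above the TMG libraries (-2.42 ± 0.62, adjusted p = 0.0141, edgeR). This intron was also high in DMSO library a of 2 h of the OSMI-2 experiment, with 51 counts against 7 and 3, and in DMSO library a of 6 h of the TMG experiment, with 121 counts against 15 and 20.

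With TMG at 6 h, 4 members rose and 1 fell (edgeR), where 0.162% of all detained introns rose and 0.0232% fell (0.186% called). The median log2 change was 0.16 for members and 0.12 for shorter introns. By the ratio to the gene 1 member rose, OGT_E005, and 1 fell, IMMT_E005 (limma; 0.0696% and 0.0232% of all, 0.0928% called). Leaving out library a or b of DMSO or library b of TMG gave 1 call, and leaving out TMG library a gave 4. The count depended on DMSO library b, the one with the highest intron share: without it 218 members rose and 4 fell, with a median of 0.34 (edgeR). Without TMG library b, 2 rose and 1 fell. DESeq2 called 2 members, and 1 fit over all libraries called 1.

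Besides OGT_E005, FYN_E006 (hg19 chr6:112017660-112020717), in the gene of a Src-family kinase, was higher in every TMG library of 6 h. It had 22, 35 and 25 counts in DMSO (0.660%, 1.16% and 0.768% of the gene) and 64, 51 and 61 with TMG (1.88%, 1.87% and 2.02%). FYN_E006 rose by 1.15 ± 0.26 (adjusted p = 0.0204, edgeR) and had 1.17 ± 0.26 relative to the gene (adjusted p = 0.261, limma). The other 2 rises rest on some of the TMG libraries. ANKRD17_E009 had 18, 36 and 23 counts in DMSO and 31, 116 and 133 with TMG (1.95 ± 0.31, adjusted p = 4.47e-05, edgeR), and its groups overlapped. NUDT5_E006, in the gene of a nucleotide sugar hydrolase, had 70, 88 and 84 counts in DMSO and 111, 75 and 448 with TMG (1.45 ± 0.29, adjusted p = 0.00258, edgeR). NUDT5_E006 was also high in single libraries of 4 other groups, with 235 counts in OSMI-2 library c of 2 h. FYN_E006, ANKRD17_E009 and NUDT5_E006 are named after their values were seen.

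IMMT_E005 (hg19 chr2:86378644-86380682) fell with TMG at 6 h, from 105, 92 and 217 counts to 39, 30 and 28 (-2.05 ± 0.26, adjusted p = 6.62e-08, edgeR; -2.05 ± 0.32 relative to the gene, adjusted p = 0.0107, limma), and did not pass with 1 fit over all libraries (adjusted p = 0.28, edgeR). IMMT_E005 and IMMT_E007 are separate members of the same gene and varied widely within groups. In DMSO at 2 h of the OSMI-2 experiment they had 12 and 10 counts in library a, 147 and 138 in library b, and 161 and 143 in library c. In the same group of the TMG experiment IMMT_E005 had 92, 118 and 20 counts and IMMT_E007 44, 70 and 43.

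In DMSO of the OSMI-2 experiment, 2136 of 2405 members rose from 2 h to 6 h and 44 fell (edgeR), where 88.6% of all detained introns rose and 1.74% fell (90.3% called). The median log2 change was 1.84 for members and 1.56 for shorter introns, and by width it went from 1.51 under 500 bases to 2.04 at 5000 to under 10000 bases. Relative to the gene 2140 rose and 43 fell (limma; 88.6% and 1.28% of all, 89.8% called), with a median of 1.80. All genes had a median of -0.25 under this scaling, -0.33 with median-of-ratios factors and 0.04 with TMM over gene sums alone. Without DMSO library a of 6 h, 2111 members rose and 41 fell, with a median of 1.74 (edgeR).

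The largest rises described here had few counts at 2 h. GLMN_E004 (hg19 chr1:92713547-92716737), in the gene of an inhibitor of cullin ligases, had 11, 25 and 24 counts at 2 h and 397, 340 and 240 at 6 h, or 1.21%, 3.40% and 3.09% and then 18.8%, 29.9% and 21.9% of the gene. GLMN_E004 rose by 3.43 ± 0.29 (adjusted p = 9.18e-15, edgeR) and relative to the gene by 3.23 ± 0.37 (adjusted p = 1.59e-05, limma). TLE4_E018 (hg19 chr9:82324615-82332911), in a transcriptional corepressor gene, had 6, 10 and 16 counts and then 243, 233 and 107 (3.59 ± 0.34, adjusted p = 2.75e-13, edgeR). MPHOSPH9_E006 rose by 3.67 ± 0.38, and ZZZ3_E012, in the gene of a zinc finger protein of an acetyltransferase complex, by 3.61 ± 0.37. TTLL4_E006, in a tubulin polyglutamylase gene, rose by 3.37 ± 0.35, LARS_E020, in the leucyl-tRNA synthetase gene, by 3.35 ± 0.36, and CCDC18_E028 by 3.35 ± 0.37. With OSMI-2 at 6 h, GLMN_E004 had 43 and 52 counts and TLE4_E018 had 33 and 54, both below every DMSO library of 6 h. Both introns were named for being high in these same DMSO libraries, so this position is no further result.

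Among the falls over time, LONP1_E011 fell by 1.30 ± 0.26 and LONP1_E014 by 0.92 ± 0.28 (edgeR), but relative to the gene LONP1_E011 had -0.39 (adjusted p = 0.222) and LONP1_E014 -0.07 (adjusted p = 0.826, limma). CHAF1B_E009, in the gene of a histone chaperone subunit, fell by 0.99 ± 0.25 and TNRC18_E017 by 1.01 ± 0.29. TSC1_E012, in the gene of hamartin, an inhibitor of mTOR signalling, fell by 0.82 ± 0.27. The bin listed as S100B_E010 (hg19 chr21:9875196-9881873) fell by 0.81 ± 0.29, but this position does not look like that of S100B and the value may not be one of that gene. PPARA_E012, in the gene of a lipid-sensing nuclear receptor, fell by 0.71 ± 0.29. The edgeR calls of TSC1_E012, S100B_E010 and PPARA_E012 were lost with TMM over gene sums alone (adjusted p = 0.0624, 0.0997 and 0.174), and those 3 fell relative to the gene (limma adjusted p = 0.0048, 0.0132 and 0.00211). Without DMSO library a of 6 h these edgeR calls were lost as well (adjusted p = 0.0507, 0.0629 and 0.0569). S100B_E010 also lost its call without library c of 2 h (0.0650), and PPARA_E012 without library a or b of 2 h (0.239 and 0.0656, edgeR).

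In DMSO of the TMG experiment, 576 members rose from 2 h to 6 h and 25 fell (edgeR), where 20.5% of all detained introns rose and 0.974% fell (21.5% called), and the median was 0.46 for members and 0.35 for shorter introns. As a ratio to the gene 370 rose and 16 fell (limma; 13.6% and 0.441% of all, 14.1% called), with a median of 0.45. Without DMSO library b of 6 h, 217 rose and 26 fell, with a median of 0.29, and without library a or c of 6 h 934 and 289 rose. Without library a, b or c of 2 h, 202, 292 and 253 rose, and DESeq2 called 267 members. By the ratio to the gene, leaving out library a, b or c of 6 h gave 609, 121 and 224 calls, and leaving out library a or c of 2 h gave 192 and 249 (limma). Of the members called over time in this experiment, 93.8% were also called in DMSO of the OSMI-2 experiment, which were 25.9% of the calls there; 549 of these 564 moved the same way. The time courses share no library, but 90.6% of all tested members were called in the OSMI-2 experiment, so 93.8% is near the share of any members.

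AGPAT4_E008 (hg19 chr6:161575343-161586608), in the gene of an acyltransferase of phospholipid synthesis, had 39, 55 and 50 counts at 2 h and 90, 171 and 134 at 6 h (1.59 ± 0.23, adjusted p = 2.27e-08, edgeR; 1.52 ± 0.27 relative to the gene, adjusted p = 0.00248, limma). ARAP1_E006 rose by 1.58 ± 0.27 and AARS_E009, in the alanyl-tRNA synthetase gene, by 1.40 ± 0.21. MCM6_E007, in the gene of a subunit of the replicative helicase, rose by 1.34 ± 0.21, and ATP6V0A1_E007, in a proton pump gene, by 1.34 ± 0.24. VPS41_E009, in a vacuolar sorting gene, rose by 1.33 ± 0.23, TLE4_E018 by 1.32 ± 0.26, and SMARCC2_E016, in a chromatin remodelling gene, by 1.20 ± 0.26 (edgeR). Of these 8, ATP6V0A1_E007 (adjusted p = 0.113) and TLE4_E018 (adjusted p = 0.0866) did not pass relative to the gene (limma).

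ROR1_E006 (hg19 chr1:64608334-64624663), in the gene of a receptor of the tyrosine kinase family, had 67, 83 and 73 counts at 2 h and 26, 28 and 26 at 6 h (-1.35 ± 0.27, adjusted p = 0.000127, edgeR), and 14.5%, 12.6% and 13.7% of the gene against 6.53%, 6.93% and 7.24% (-0.95 ± 0.22, adjusted p = 0.00918, limma). DENND5A_E027 changed by -1.06 ± 0.26 and PHIP_E038 by -0.84 ± 0.25 (edgeR), and both fell relative to the gene (limma adjusted p = 0.0163 and 0.00489). EBF4_E018 (-1.19 ± 0.23), C1S_E003 (-0.77 ± 0.21) and the LUC7L2+C7orf55-LUC7L2_E007 bin (-0.71 ± 0.20) fell by edgeR and did not pass relative to the gene (limma adjusted p = 0.782, 0.619 and 0.159). The call of LUC7L2+C7orf55-LUC7L2_E007 was lost with 1 fit over all libraries (adjusted p = 0.0589, edgeR) and without library c of 2 h (0.0519). That of C1S_E003 was lost without library a of 2 h (0.0509) or c of 6 h (0.0501), and that of PHIP_E038 without library b of 2 h (0.106, edgeR).

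**Figure D4:**
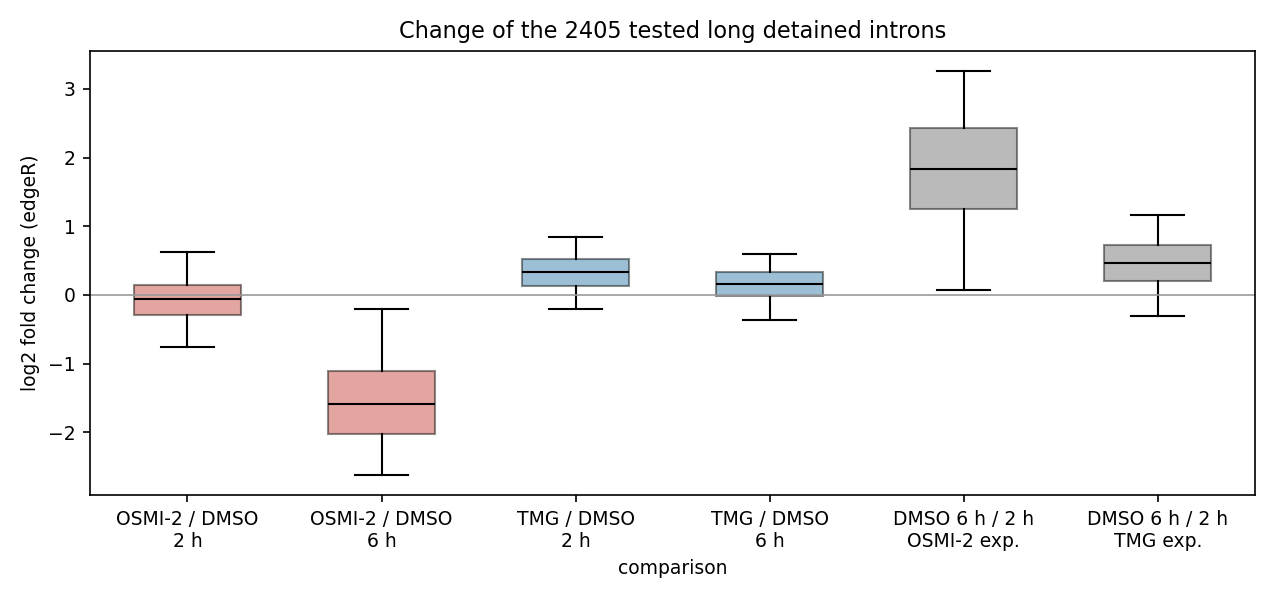
Boxes show the quartiles and the line the median of the log2 fold changes of all tested members in each comparison, with whiskers at the 5th and 95th percentiles. The medians run from -1.58 (OSMI-2 against DMSO, 6 h) to 1.84 (DMSO, 6 h against 2 h, OSMI-2 experiment), and the last 2 boxes share DMSO libraries with the drug comparisons.

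**Figure D5:**
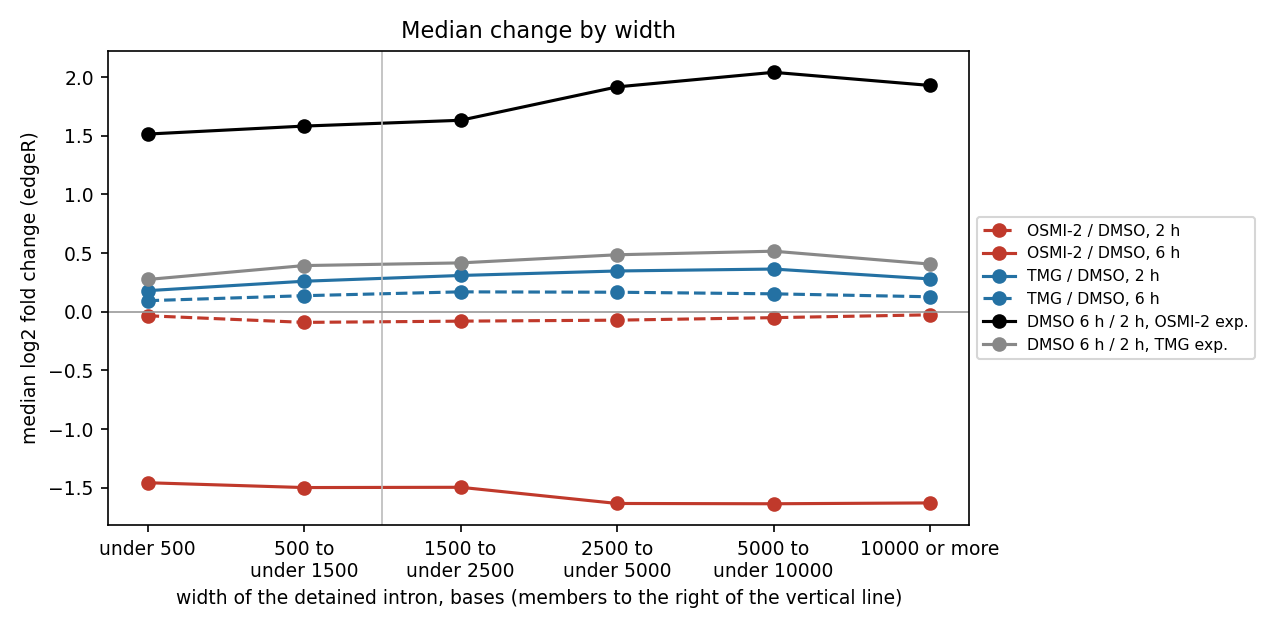
Median log2 fold change of tested detained introns by width class, with a line for each comparison and members to the right of the vertical line. The medians of members differ from those of introns under 500 bases by the most in DMSO over time of the OSMI-2 experiment (1.51 under 500 bases, 2.04 at 5000 to under 10000).

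The responses to the drugs were also compared directly, as interaction terms (edgeR). At 2 h, 5 members differed between OSMI-2 and TMG, all lower with OSMI-2, where 0.186% of all detained introns were lower and 0.0464% higher (0.232% called): OGT_E005, IMMT_E007 (-3.04 ± 0.56, adjusted p = 0.00365), SHPK_E021 (-1.69 ± 0.38, adjusted p = 0.0339), NRDE2_E003 (-1.43 ± 0.32, adjusted p = 0.031) and EIF3D_E004 (-1.23 ± 0.25, adjusted p = 0.0108). EIF3D_E004, in the gene of a translation initiation factor subunit, had 185, 191 and 160 counts in DMSO and 176, 307 and 135 with OSMI-2, or 0.637%, 0.665% and 0.714% of the gene against 0.505%, 0.524% and 0.570%. With TMG it had 1.07%, 1.26% and 0.952% against 0.487%, 0.695% and 0.732% in DMSO. So EIF3D_E004 was lower in every OSMI-2 library and higher in every TMG library than in the DMSO libraries beside them, relative to the gene. SHPK_E021 and NRDE2_E003, like EIF3D_E004, are named after their values were seen. Leaving out 1 library gave 1 to 8 calls: 2 without DMSO library a, 1 without DMSO library b, 2 without OSMI-2 library a, 8 without OSMI-2 library c, 3 without DMSO library a or b of the TMG experiment, and 3, 2 and 3 without TMG library a, b or c.

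At 6 h, 1836 members were lower and 12 higher in their response to OSMI-2 than to TMG (edgeR; 75.4% and 0.626% of all, 76% called), with a median difference of -1.59. Without DMSO library a of the OSMI-2 experiment 1136 were lower and 43 higher, with a median of -0.96. Between 2 h and 6 h the response to OSMI-2 differed in 1615 members (69% of all called). Of these, 1608 were lower and 7 higher at 6 h (68.8% and 0.255% of all). Both of these OSMI-2 results use the high DMSO group of 6 h in that experiment. The response to TMG differed in 2 members (0.0464% of all higher and 0.0232% lower, 0.0696% called), ANKRD17_E009 (2.74 ± 0.56) and IMMT_E005 (-2.34 ± 0.48, adjusted p = 0.0125 each, edgeR). For TMG this count was 0 without TMG library a of 2 h, DMSO library c of 6 h, or TMG library b or c of 6 h, 1 without DMSO library b or c or TMG library c of 2 h, and 6 without DMSO library a of 6 h. Of the members called in TMG at 2 h, 97.8% were also called in OSMI-2 at 6 h, where 86.9% of all tested members were called, and these were 12.7% of the calls there. All 266 shared calls had the opposite sign, which the directions of the 2077 falls among 2090 calls with OSMI-2 and of the 271 rises among 272 calls with TMG nearly fix. These comparisons share no library.

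The host genes of members were also grouped by function. Over all 4310 tested detained introns, 86.5% fell with OSMI-2 at 6 h and 8.89% rose with TMG at 2 h (edgeR). In DMSO over time, 88.6% and 20.5% rose in the OSMI-2 and TMG experiments (edgeR). The counts of each list stand beside these shares, which hold introns of every tested width and depth. With TMG at 2 h, 11.3% of the long introns rose (edgeR). Relative to the gene, 0 of the 2405 tested members passed with TMG at 2 h, so 0 passed in each list (limma). With that test on the introns with a mean of 50 or more counts, 141 of 746 members passed, which were not counted by list. The lists were not compared with introns of like depth. In the HNRNP list, RNA-binding proteins that often repress splice sites, 5 of 25 genes in the tables host a tested member. All 5 members fell with OSMI-2 at 6 h (86.5% of all; median -1.57, beside -1.54 over all tested introns), and 3 rose with TMG at 2 h (8.89% of all; median 0.54, beside 0.28). PTBP2_E009, in the gene of the neuronal polypyrimidine tract protein, had 7, 28 and 15 counts in DMSO at 2 h and 366, 204 and 130 at 6 h of the OSMI-2 experiment, and 39 and 68 with OSMI-2 at 6 h. With TMG at 2 h PTBP2_E009 had 137, 172 and 140 counts against 83, 124 and 94 in DMSO (0.63 ± 0.15, adjusted p = 0.00796, edgeR). HNRNPU_E014 (0.46 ± 0.13, adjusted p = 0.0289) and SYNCRIP_E004 (0.60 ± 0.18, adjusted p = 0.030) were the other rises, and HNRNPUL1_E014 had -0.47 ± 0.23 (adjusted p = 0.193, edgeR).

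Of the SR proteins and their kinases, which promote exon recognition, 5 of 23 genes host a member. All 5 fell with OSMI-2 at 6 h (median -1.82) and all 5 rose in DMSO over time of that experiment (median 1.81), near the 86.5% and 88.6% of all introns. With TMG at 2 h 3 rose (median 0.46; 8.89% of all): SRRM1_E019, SON_E017 and SRSF11_E005. SON_E017 (hg19 chr21:34941394-34944056), in the gene of a large nuclear speckle protein, had 373, 549 and 431 counts in DMSO and 759, 770 and 598 with TMG at 2 h, or 2.13%, 2.38% and 2.19% of the gene against 3.57%, 3.57% and 2.68%. SON_E017 rose by 0.71 ± 0.10 (adjusted p = 4.62e-05, edgeR), the groups being apart. In the OSMI-2 experiment it went from 16, 46 and 48 counts in DMSO at 2 h to 620, 357 and 351 at 6 h, and had 105 and 179 with OSMI-2 at 6 h. CLK3_E005 and SRPK1_E003, in genes of kinases that phosphorylate SR proteins, had 0.37 ± 0.16 (adjusted p = 0.123) and 0.46 ± 0.18 (adjusted p = 0.0996) with TMG at 2 h (edgeR).

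The spliceosome list has 15 members in 14 of 39 genes. With OSMI-2 at 6 h 14 fell (86.5% of all introns; median -2.08), with TMG at 2 h 3 rose (8.89% of all; median 0.31), and in DMSO over time 14 rose in the OSMI-2 experiment and 0 passed in the TMG experiment (edgeR). CCNL1_E008, in the gene of a cyclin that partners splicing kinases, had 432, 569 and 440 counts in DMSO and 611, 607 and 622 with TMG at 2 h (0.40 ± 0.09, adjusted p = 0.00554, edgeR). PRPF8_E007, in the gene of the central protein of the spliceosome, had 160, 162 and 141 counts in DMSO and 28 and 35 with OSMI-2 at 6 h (-2.44 ± 0.34, adjusted p = 2.7e-11, edgeR). SF3B2_E021 (-2.30 ± 0.31), PRPF3_E018 (-2.26 ± 0.31) and SART3_E007 (-2.31 ± 0.39) fell by similar amounts, while PRPF6_E021 had -0.42 ± 0.28 (adjusted p = 0.149, edgeR).

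Of the DEAD and DEAH box helicases, which remodel RNA, 16 of 43 genes host 17 members, of which 16 fell with OSMI-2 at 6 h (86.5% of all introns; median -1.44) and 4 rose with TMG at 2 h (8.89% of all; median 0.43). DDX17_E006 (hg19 chr22:38886442-38888060), whose splice sites are shown above, had 371, 533 and 286 counts in DMSO at 2 h and 4611, 3561 and 2439 at 6 h of the OSMI-2 experiment (2.55 ± 0.23, adjusted p = 1.06e-13, edgeR), and 700 and 972 with OSMI-2 at 6 h (-2.23 ± 0.26, adjusted p = 7.21e-15, edgeR). DHX15_E006, in the gene of a helicase that takes spent spliceosomes apart, had 400, 498 and 362 counts in DMSO and 515, 544 and 551 with TMG at 2 h (0.41 ± 0.09, adjusted p = 0.00674, edgeR). Of the RBM and LUC7 factors, 5 of 26 genes host a member, all 5 fell with OSMI-2 at 6 h (median -1.71) and 2 rose with TMG at 2 h, RBM5_E020 (0.51 ± 0.10, adjusted p = 0.00186) and RBM10_E009 (0.69 ± 0.16, adjusted p = 0.00632, edgeR).

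The DNA repair list, with 34 members in 22 of 50 genes, had the most members of the 8 lists, and 32 of them were tested. All 32 fell with OSMI-2 at 6 h (86.5% of all introns; median -2.01) and 31 rose in DMSO over time of that experiment (88.6% of all; median 1.98). With TMG at 2 h 2 of the 32 rose (8.89% of all introns), with a median of 0.22. LIG1_E018, in the gene of a DNA ligase of replication, had 1225, 1076 and 951 counts in DMSO and 186 and 446 with OSMI-2 at 6 h (-2.01 ± 0.28, adjusted p = 2.6e-11, edgeR). The rises with TMG at 2 h were FANCA_E022 (0.98 ± 0.22, adjusted p = 0.00607) and FANCI_E036 (0.77 ± 0.18, adjusted p = 0.00613, edgeR), both in Fanconi anaemia genes of crosslink repair, whereas the second members of these genes, FANCA_E034 and FANCI_E048, had 0.24 ± 0.25 and 0.12 ± 0.20 and did not pass. Of the 6 members in nonsense-mediated decay genes, all fell with OSMI-2 at 6 h (median -1.79) and 0 passed with TMG at 2 h (median 0.21). SMG9_E008 had 237, 339 and 225 counts in DMSO and 296, 288 and 247 with TMG at 2 h, which overlapped. In the O-GlcNAc list, 3 of 8 genes host a member: OGT, MGEA5 and GFPT2. With OSMI-2 at 2 h and TMG at 6 h, 0 members of the other 7 lists passed (edgeR). The lists were drawn up with earlier results of these data known.

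The longest members with a mean of 50 or more counts were WWOX_E005 (49028 bases), MID1_E011 (43700), TRAF3IP1_E017 (41378), SH3PXD2A_E012 (33570) and VAC14_E007 (32489). WWOX_E005, in the gene of an oxidoreductase at a fragile site, had 115, 174 and 169 counts in DMSO and 133, 141 and 160 with TMG at 2 h, which overlapped. VAC14_E007, in the gene of a scaffold for a lipid kinase, had 26, 36 and 23 counts and then 59, 34 and 48 (0.78 ± 0.23, adjusted p = 0.031, edgeR), with overlap in counts and none in the percent of the gene. The shortest were BRD9_E021 and EIF2B1_E005 (1501 bases each), ENTPD6_E015 (1504), EXOSC8_E005 (1508) and TM9SF1_E002 (1517). EIF2B1_E005, in the gene of a subunit of a translation initiation exchange factor, fell with OSMI-2 at 6 h (-2.15 ± 0.31, adjusted p = 9.86e-11), and TM9SF1_E002 had -0.08 ± 0.28 (adjusted p = 0.786, edgeR). Just outside the rule, EIF3H_E006 (1498 bases) had -1.03 and TTC3_E034 (1495 bases) -2.02 with OSMI-2 at 6 h, and just inside it ABL1_E011 (1500 bases) had -1.29 and BRD9_E021 -0.72. Among 1494 tested members with no annotated exon inside, the median log2 changes were -1.62 for OSMI-2 at 6 h and 0.34 for TMG at 2 h, beside -1.58 and 0.33 over all tested members.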

How the data were processed

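The authors deposited 4 tables, 1 per drug and time, of whole-number counts per gene bin and library. Per the file headers, the authors' log2 fold change of each bin's usage and its p-value, raw and adjusted, stand beside the counts; the text uses these only where it names the authors' deposited table. STAR and hg19 are named in the submitters' processing notes; the counter and its use of strand are not given in the sources used here, so overlapping genes can share reads. Another 96 files of index reads were not used, and 0 count columns were left out. Columns carry letters, not the replicate numbers of the titles.

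Bins that are no detained intron were summed per gene. All 4310 detained introns with a mean of 10 or more counts were fitted with edgeR 4.0.16 (glmQLFit, glmQLFTest; R 4.3.3), with library totals scaled by TMM over genes and introns, and with limma 3.58.1 (eBayes with trend) on log2 of intron count plus 1 over gene count plus 1. Each fit held only the groups compared, was two-sided, and was adjusted by Benjamini-Hochberg over all introns, with a threshold of 0.05. After log2 changes ± gives the standard error, and after percents it gives the SD over libraries. Shares of counts were compared by exact permutation tests over libraries (Python 3.11.15, numpy 2.4.6). The scripts were tested on simulated data. DESeq2 1.42.0, other scalings and filters, and leaving out each library were tried as alternatives. Sequences were matched by gene name and intron length to GENCODE 29.

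Named in each comparison were the 8 largest rises and 8 largest falls among called members with a mean of 50 or more counts in the comparison and separated libraries in CPM. Over all libraries, the rule named the 8 members with the highest percent of their gene, the 5 longest and 5 shortest with a mean of 50 or more counts, that with the most counts, and members of listed genes with a mean of 50 or more counts; of the last, the text gives examples. Some of the introns and genes so chosen are not reported here. Members, lists and tests were chosen with earlier results of these data known. Totals of 39.5 M to 100.2 M counts per library leave the median member with 11 to 74 counts.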

Additional observations from a re-analysis of the deposited data

Results flagged for a closer look

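The response to OSMI-2 differed from the response to TMG in 5 members at 2 h and in 1848 members at 6 h, by edgeR interaction terms. The 5 at 2 h were IMMT_E007 (-3.04), OGT_E005 (-2.42), SHPK_E021 (-1.69), NRDE2_E003 (-1.43) and EIF3D_E004 (-1.23, log2 scale). The response to OSMI-2 differed between 2 h and 6 h in 1615 members, and that to TMG in 2, IMMT_E005 (-2.34) and ANKRD17_E009 (2.74). The counts of 1848 and 1615 both use the high DMSO group of 6 h in the OSMI-2 experiment. The drugs were given in separate experiments with their own DMSO libraries, so drug and experiment cannot be told apart beyond the DMSO of each. No group has more than 3 libraries, so single libraries were not tested as outliers.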

How the results depend on the processing

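No paired analysis was possible because libraries are lettered a to c in the tables, and the labels do not tie these letters to the replicate numbers of the titles. Scaling by TMM over the detained introns alone, which by construction removes a shift common to all introns, gave 427 called members for OSMI-2 at 6 h (259 higher, 168 lower), 32 for TMG at 2 h, 733 and 184 for DMSO over time in the OSMI-2 and TMG experiments, 2 and 325 for the drug difference at 2 h and 6 h, and 127 and 4 for the time difference of OSMI-2 and TMG. It turned OGT_E005 in TMG at 2 h to -0.0269. Median-of-ratios factors gave 3 for the drug difference at 2 h. One fit over all libraries gave 1 for TMG at 2 h and 1 at 6 h. DESeq2 gave 1 (OSMI-2, 2 h), 129 and 2 (TMG, 2 h and 6 h) and 267 (DMSO over time, TMG experiment). The term for GC set gave 4 (OSMI-2, 2 h).

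Relative to the gene, a mean of 50 or more counts, with 746 members tested, gave 1 and 686 (OSMI-2, 2 h and 6 h), 141 (TMG, 2 h), and 701 and 210 (DMSO over time). The adjusted p of the authors' deposited table gave 2 (OSMI-2, 2 h) and 101 (TMG, 2 h). Of 2 alternatives added after the data were seen, 1 fit over all libraries gave 10 (OSMI-2, 2 h) and 0 (TMG, 6 h), and a mean of 10 or more within the comparison gave 1 (OSMI-2, 2 h) and 3 (TMG, 2 h).

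Leaving out each library in turn, calls by edgeR ran from 1 to 5 and from 1755 to 2121 (OSMI-2, 2 h and 6 h), from 36 to 371 and from 3 to 222 (TMG), and from 2101 to 2187 and 216 to 957 (DMSO over time). The drug difference ran from 1 to 8 and from 1179 to 1952, and the time difference from 1253 to 1746 (OSMI-2) and from 0 to 6 (TMG). Relative to the gene, calls ran from 0 to 1 and 1997 to 2198 (OSMI-2), were 0 throughout (TMG, 2 h), and ran from 1 to 4 (TMG, 6 h) and from 2085 to 2169 and 121 to 609 (DMSO over time). The difference in the share of all counts ran from -0.0114 to -0.000238 and from -0.438 to -0.296 percentage points (OSMI-2), from 0.0524 to 0.0750 and from 0.00759 to 0.0752 (TMG), and from 0.327 to 0.469 and 0.0471 to 0.115 (DMSO over time). Where an arm was left with 1 library, the fit assumes that it varies like the others. Of 743 checks on 58 pairs of a named intron and a comparison, 700 kept direction and side of the threshold, 40 lost and 2 gained the call, and 1 changed sign. The cause of these differences was not tested. Depth left 243 members with a mean under 10 counts untested, and 746 of the 2405 tested members had a mean of 50 or more.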
